A study of Mus musculus with 4 samples.

Results

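The report concerns 9 transcription factor genes, chosen by name from the 31053 genes listed for each library. They are 6 genes of the embryonic pallium (Emx1, Emx2, Dmrta2, Fezf2, Tfap2c and Lhx2) and 3 genes of the Zic family (Zic1, Zic2 and Zic5), and all 9 were found by symbol in each of the 4 libraries. The dorsal wall of the ventricular-subventricular zone (V-SVZ), the germinal layer along the lateral ventricle, was microdissected from wild-type OF1 mice and profiled by 10x Genomics single-cell RNA sequencing. The study asked how germinal activity of the pallial lineage comes to be silenced in this tissue after birth. Libraries were made at postnatal day 2 (P2, 1 library), P12 (2 libraries, from independent experiments and called replicates 1 and 2 here) and P22 (1 library). No group carries a transgene or treatment. The labels give all animals as male, whereas the study's methods report a female at P2. P2 and P22 each pool 2 mice, and the sources used here do not settle whether each P12 library holds 1 or 2.

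The pallium is the dorsal part of the embryonic forebrain, whose progenitors give rise to the glutamatergic neurons of the cortex, while the subpallium gives rise to GABAergic interneurons. Emx1, Emx2, Dmrta2, Fezf2 and Lhx2 are set up in cortical progenitors as the pallium is patterned, and Tfap2c (AP2γ) acts in basal progenitors of the developing cortex. The Zic genes encode zinc finger proteins of the dorsal neural tube and midline. In the adult V-SVZ, quiescent neural stem cells (qNSCs) become activated (aNSCs), which divide and give transit-amplifying progenitors (TAPs) and then neuroblasts. For the postnatal dorsal V-SVZ, the study's trajectory analysis placed aNSCs at the start, with courses toward qNSCs, glial cells and TAPs. Ependymal cells and astrocytes are other neural cells of the niche. Where a gene is said to rise or fall between classes, levels are compared and no order in time is meant.

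After the filter on cells, 4027 (P2), 7004 and 4596 (P12 replicates 1 and 2) and 4230 (P22) cells were kept, with medians of 11853.5 to 14303 UMIs. A UMI (unique molecular identifier) marks 1 captured RNA molecule. Levels are given as CPM, the UMIs of a gene scaled to the total UMIs of all cells of a class in a library, with exact Poisson 95% intervals where 1 library stands alone, and these intervals cover counting error only. Each gene is compared between classes and libraries, and no level is compared between genes. Classes were named from marker lists after clustering on genes that did not include the 9, and "-like" marks that they rest on markers, with GLU for glutamatergic and GABA for GABAergic. Clusters 4 (led by Igf1, Gdf5, Angptl1 and Wfikkn2), 8 (led by Olig1, Olig2 and Egfr) and 10 (low in UMIs) stay unnamed. Pairs of libraries shared 3 to 8 barcodes of kept cells, at most 0.174% of the smaller library. In sums of a class, fewer cells with a transcript and less RNA per cell cannot be told apart, so shares of cells with a UMI are also given with every cell thinned to 5000 UMIs.

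On mm10 (GRCm38), the 9 genes lie on 6 chromosomes. Emx1 is at chr6:85187438-85204462, Emx2 at chr19:59458372-59465357, Dmrta2 at chr4:109978053-109983687, Fezf2 at chr14:12342094-12348189, Tfap2c at chr2:172549593-172558622 and Lhx2 at chr2:38339281-38369733. Zic5 (chr14:122456795-122465677, minus strand) and Zic2 (chr14:122475435-122479852, plus strand) lie head to head, 9757 bases apart. Zic1 (chr9:91358058-91365810, minus strand) shares exonic sequence with Zic4 on the other strand, and Emx2 likewise with the antisense gene Emx2os. Whether the counting used strand is not given in the sources used here, so that Zic1 and Zic4, and Emx2 and its antisense gene, are uncertain to that extent.

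The sequences just upstream of the annotated RefSeq start (GRCm38.p6) are shown for 4 of the genes. Dmrta2 was lower in the subpallial qNSC-like cluster and rose from aNSC-like to TAP-like cells, Lhx2 was the member that did not pass between the qNSC-like clusters, and Zic1 and Zic5 were higher in astrocyte-like than in qNSC-like cells, as described next. They are given 5′ to 3′ on the strand of the gene, with capitals marking the motif CCAAT (searched on both strands, so that ATTGG would also be marked). The Dmrta2 window is chr4:109977775-109978024, the Lhx2 window chr2:38339031-38339280, the Zic1 window chr9:91365811-91366018 (208 bases outside exons) and the Zic5 window chr14:122465678-122465908 (231 bases).
Dmrta2: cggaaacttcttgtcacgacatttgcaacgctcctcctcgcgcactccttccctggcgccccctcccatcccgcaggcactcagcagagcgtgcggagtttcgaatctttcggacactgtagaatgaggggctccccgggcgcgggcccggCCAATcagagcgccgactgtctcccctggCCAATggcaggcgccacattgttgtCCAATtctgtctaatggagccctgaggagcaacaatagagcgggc
Lhx2: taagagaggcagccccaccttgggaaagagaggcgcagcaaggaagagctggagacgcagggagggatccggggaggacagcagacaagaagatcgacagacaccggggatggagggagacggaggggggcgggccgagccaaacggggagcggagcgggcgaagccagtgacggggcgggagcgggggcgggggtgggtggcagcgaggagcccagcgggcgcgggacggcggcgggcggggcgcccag
Zic1: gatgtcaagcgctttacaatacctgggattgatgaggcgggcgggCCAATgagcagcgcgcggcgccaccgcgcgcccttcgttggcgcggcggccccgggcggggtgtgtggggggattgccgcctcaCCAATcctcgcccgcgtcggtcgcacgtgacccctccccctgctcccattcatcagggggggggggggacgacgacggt
Zic5: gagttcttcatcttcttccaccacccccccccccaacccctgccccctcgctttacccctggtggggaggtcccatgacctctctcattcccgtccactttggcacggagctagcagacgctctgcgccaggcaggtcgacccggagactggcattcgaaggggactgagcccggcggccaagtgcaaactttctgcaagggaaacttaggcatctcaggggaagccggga
CCAAT occurs 3 times in the Dmrta2 window and 2 times in that of Zic1, and is absent from those of Lhx2 and Zic5. It is held by 33.8% of the 32851 windows of 250 bases upstream of RefSeq genes. TAATTA, the core that homeodomain proteins bind, is in 4.84% of windows and in none of these 4. The 250 bases upstream held 19 (Dmrta2), 25 (Lhx2), 27 (Zic1) and 11 (Zic5) CpG, against a median of 6 over all windows. Windows were found for 7 of the 9 genes, the motifs were chosen after the sequences had been read, and a match is a description only.

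At P12 the pallial genes were detected throughout the stem cell classes, and each of the 6 was at a lower level in GABA than in GLU neuroblast-like cells of replicate 1. Emx1, a homeobox gene of cortical progenitors, stood at 55.4 and 57.5 CPM in the qNSC-like cells of replicates 1 and 2 and at 49.1 and 54.4 CPM in ependymal-like cells. Its highest values were in cluster 4 (90.5 and 115 CPM) and in the 60 GLU neuroblast-like cells of replicate 1 (92.6 CPM, 95% interval 73.8 to 115), whose intervals overlapped. Below these came aNSC-like (21.1 and 28.1), astrocyte-like (22.6 and 18.5) and TAP-like cells (11.6 and 26.6 CPM), which did not separate beyond the gap between replicates. GABA neuroblast-like cells of replicate 1 held 3.88 CPM (0.8 to 11.3). Replicate 2 had only 10 GLU and 5 GABA neuroblast-like cells, so that its values in them are not used.

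Emx2, the paralog of Emx1 that also patterns the caudal cortex, had a flatter profile. It stood at 127 and 121 CPM in qNSC-like cells, 124 and 114 in cluster 4 and 80.9 and 87.6 in astrocyte-like cells, while TAP-like (44.4 and 63.2) and aNSC-like cells (53.8 and 64.5 CPM) were close to each other. Its level in GABA neuroblast-like cells was 6.47 CPM (2.1 to 15.1). Dmrta2, a DM-domain factor of the cortical hem and medial cortex, was at 90.5 and 83.5 CPM in qNSC-like cells and 79.1 and 67.8 CPM in TAP-like cells. GLU neuroblast-like cells of replicate 1 held it at 102 CPM and GABA neuroblast-like cells at 28.5 CPM.

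Fezf2, a zinc finger factor known for specifying corticofugal neurons, was highest in cluster 4 (161 and 144), qNSC-like (135 and 95.9) and ependymal-like cells (119 and 109 CPM). It was at 24.2 and 33.2 CPM in TAP-like cells. Tfap2c stood at 88.6 and 111 CPM in qNSC-like cells, 54.3 and 63.6 in ependymal-like cells and 14.6 and 14.7 CPM in astrocyte-like cells. Lhx2, a LIM-homeobox gene of cortical and other neural progenitors, was broad. It had a UMI in 84.3% and 85.9% of qNSC-like cells at 5000 UMIs, in 78.8% and 74.1% of astrocyte-like cells and in 95% of the GLU neuroblast-like cells of replicate 1, against 6.9% of the GABA neuroblast-like cells.

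Zic1 and Zic5 had a different order of classes, with astrocyte-like cells at or near the top of the neural classes. Zic1 stood at 43.7 and 42.3 CPM in astrocyte-like cells against 14.9 and 16.7 CPM in qNSC-like cells. Zic5 held 80.3 and 76.9 CPM in astrocyte-like cells, 56.5 and 77.9 CPM in cluster 4 and 47 and 54.6 CPM in qNSC-like cells. Zic2, one of the Zic genes tied to holoprosencephaly, did not share this order. It was at 44.9 and 29.8 CPM in astrocyte-like cells and 33.1 and 30.1 CPM in qNSC-like cells, values that overlapped. Zic2 was the member for which GABA neuroblast-like cells (62.1 CPM, 45.8 to 82.3) lay above GLU neuroblast-like cells (1.12 CPM, 0.0283 to 6.22) in replicate 1 without overlap of the intervals.

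The share in microglia-like cells, which should lack all 9 genes, gives the level of free RNA. Of the 75 such cells at P22 (median 9413 UMIs), with UMIs as deposited, 4% had a UMI of Lhx2, 2.67% of Dmrta2 and of Zic5, 1.33% of Emx1 and of Emx2, and none of Fezf2, Tfap2c, Zic1 or Zic2, where 3 counts would give 4%. Values near these, such as the 1.83% of aNSC-like cells with Emx1 at P22 (5000 UMIs), are not told apart from background. This guide is rough, since the microglia-like shares rest on few of 75 cells and on UMIs as deposited, not thinned to 5000. P12 held 8 and 10 such cells, too few to serve, and 2 of the 10 of replicate 2 had an Emx1 UMI.

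**Figure D1:**
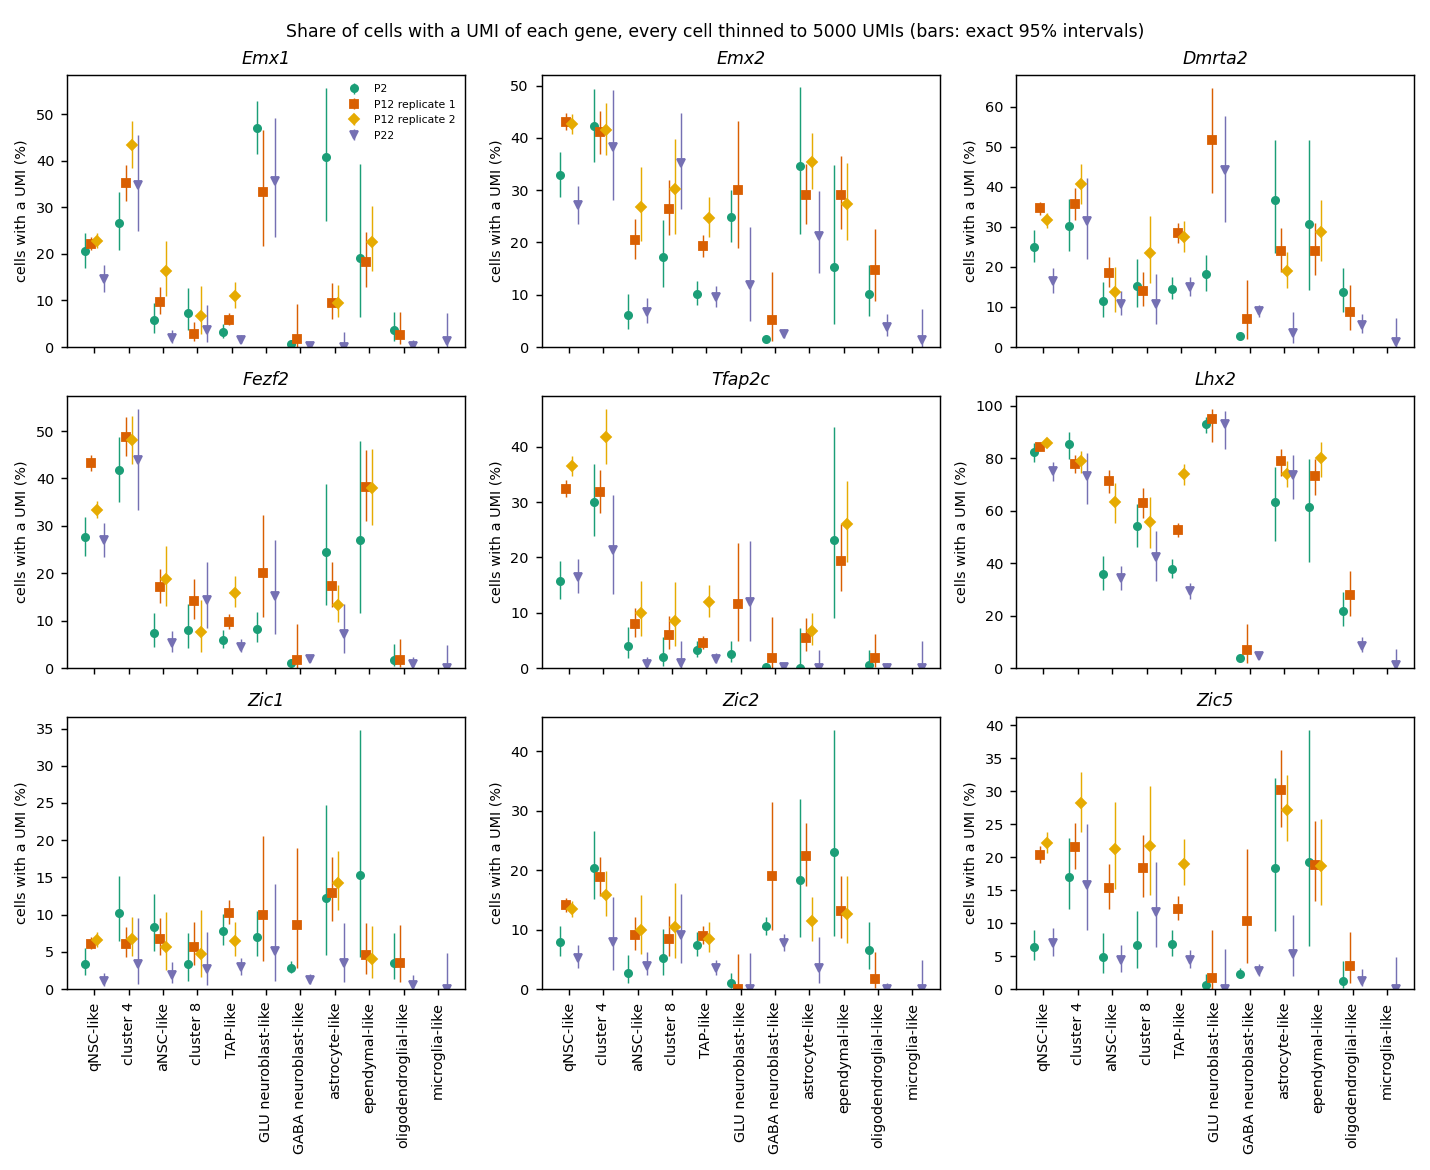
Share of cells with a UMI of each of the 9 genes (y axis, percent) in 11 classes (x axis), with every cell thinned to 5000 UMIs. Points are the 4 libraries, bars are exact 95% binomial intervals, and classes with fewer than 20 cells in a library are left out. Emx1 lies at 22.1% and 22.9% in qNSC-like cells at P12 and at 0.588%, 1.72% and 0.219% in GABA neuroblast-like cells of P2, P12 replicate 1 and P22, whereas Zic2 reaches 19% in GABA neuroblast-like cells of P12 replicate 1.

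The first comparison asked whether the genes mark the regional split among qNSC-like cells. Of the 3 qNSC-like clusters, cluster 1 held by far the most subpallial transcripts (8 genes including Gsx2, Six3 and the Dlx genes, summed to 147 and 183 CPM, against 4.6 to 16.6 CPM in clusters 0 and 2), and it was compared with clusters 0 and 2 together. Cluster 0 is the largest, and among the leading genes of cluster 2 is Rgs5, known from mural cells. In this and the comparisons that follow, UMIs were summed per library and class and tested with edgeR's quasi-likelihood test with library as block, p-values being adjusted by Benjamini-Hochberg over all genes tested. With n = 2 libraries, the p-values set a difference against the spread left between these libraries after the block. The test estimates that spread in part from all genes tested, so a small p does not mean that a gene's replicates agree. Members, regional genes and listed genes did not enter the clustering, although the other genes of the same cells did, a choice that the p-values of comparisons between clusters do not account for.

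Members of both families were lower in the subpallial cluster. Of the 9, 8 were called lower and none higher, against 31.5% of all 14319 genes called in either direction and 15.3% called lower. The members were chosen with earlier results of these data known, which these shares do not account for. The study had itself reported Emx1 as higher in its pallial than in its subpallial qNSC cluster. Zic2 stood at 2.97 and 1.23 CPM in the subpallial cluster and 41.6 and 43.6 CPM in the others (log2 fold change -4.42 ± 0.17 SE, 21.4-fold, adjusted p = 3.94e-14). Emx1 stood at 5.07 and 5.37 against 69.6 and 81.9 CPM (-3.85 ± 0.10, adjusted p = 1.25e-16), and Tfap2c at 11.5 and 7.14 against 110 and 160 CPM (-3.90 ± 0.14, adjusted p = 8.06e-15). For each of these 3 genes both values of the subpallial cluster lay below both of the others with no overlap.

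Zic5 (-2.61), Dmrta2 (-2.42) and Fezf2 (-1.58) were lower by less, and Emx2, at 82.7 and 78.5 against 139 and 141 CPM, by -0.79 ± 0.06 (adjusted p = 9.09e-10, and 0.0541 without the block). Lhx2 was the gene that did not pass, at 361 and 401 against 391 and 448 CPM (-0.12 ± 0.05, adjusted p = 0.0938). Zic1 passed (-2.22 ± 0.41, adjusted p = 0.000244), but its values in the subpallial cluster, 9.64 CPM in replicate 1 and 0.352 CPM in replicate 2, differed from each other far more than those of any other member. The Zic1 call was lost without the block (adjusted p = 0.485) and with DESeq2 (adjusted p = 0.292), and its value was -6.05 without replicate 1 and -0.76 without replicate 2.

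Other regional genes were taken from lists. Of 7 tested cortical patterning genes, 4 were lower, among them Pax6, the paired-box gene of cortical progenitors (-0.73), and Nr2f1 (-0.52), while Gli3, a transducer of Hedgehog signals, was higher (0.29), and the list's median was -0.16 against -0.01 over all genes tested. Of 6 tested subpallial genes that had not chosen the cluster, 3 were higher and 1 lower. The former included Nkx6-2 (3.78), Meis2 was lower (-0.56), and Vax1 was at 1.73 and 2.03 CPM in the subpallial cluster and not detected in the others. Zic4 was lower (-1.73). Of 5 dorsal midline genes Bmp6 was higher (1.46) and Msx1 lower (-1.15), and of 2 glutamatergic genes tested Neurog2 was lower (-1.73).

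**Figure D2:**
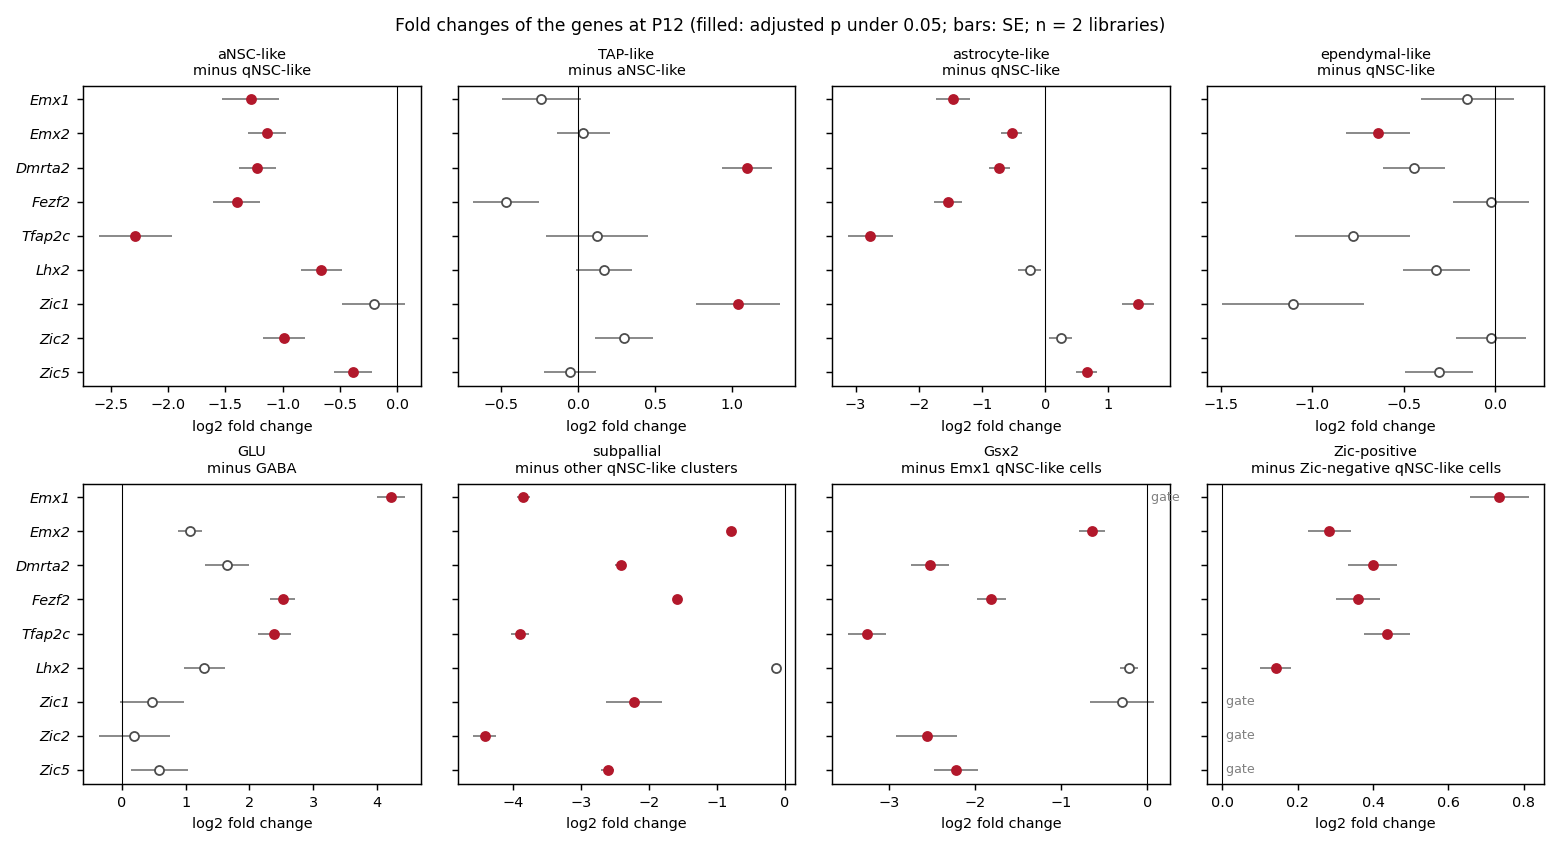
Log2 fold change of the 9 genes (x axis) in 8 comparisons at P12, from edgeR with n = 2 libraries. Filled points have an adjusted p under 0.05, bars are standard errors, and "gate" marks a gene that chose the cells compared. In the subpallial qNSC-like cluster 8 of the 9 genes lie left of 0 as filled points, down to -4.42 for Zic2, and Lhx2 lies at -0.12.

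The second comparison split qNSC-like cells one by one. At 5000 UMIs, 107 and 194 qNSC-like cells had a UMI of Gsx2, a homeobox gene of subpallial progenitors, and none of Emx1, and 777 and 607 had Emx1 and no Gsx2. Emx1 is then part of the choice and no result. Of the other 8 members, 6 were lower in the Gsx2 cells, against 8.79% of all 10903 genes called, 4.33% as lower and 4.46% as higher. Tfap2c stood at 16.8 and 14.4 against 111 and 169 CPM (-3.26 ± 0.22, adjusted p = 9.73e-13). Zic2 (-2.56), Dmrta2 (-2.52), Zic5 (-2.22) and Fezf2 (-1.81) were also lower, whereas Lhx2 (-0.21, adjusted p = 0.237) and Zic1 (-0.29, adjusted p = 0.748) did not pass. Emx2, at 110 and 76.3 against 132 and 147 CPM, passed with -0.65 ± 0.15 (adjusted p = 0.00398), a call that was lost without the block (adjusted p = 0.327) and with DESeq2 (adjusted p = 0.713). Without replicate 2 the values were -0.27 for Emx2 and -1.52 for Zic2. With UMIs as deposited, Zic1 passed too (-0.85, adjusted p = 0.0107).

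Beside them, 1 of 5 tested cortical patterning genes (Pax6, -0.79), 4 of 6 subpallial genes (Six3 5.79 and Dlx2 3.70 higher and Meis2 -0.49 lower, for example) and 1 of 2 midline genes (Msx1, -1.21) passed. Neither Zic4 nor the glutamatergic gene tested did.

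Between qNSC-like and aNSC-like cells, 8 of the 9 genes were lower in aNSC-like cells. This has to be read against a background in which 64.5% of 14205 genes were called, 33.7% as lower and 30.9% as higher. Tfap2c stood at 88.6 and 111 CPM in qNSC-like and at 18.6 and 23.7 CPM in aNSC-like cells (-2.29 ± 0.32, 4.89-fold, adjusted p = 9.61e-06). Fezf2 (-1.40), Emx1 (-1.28), Dmrta2 (-1.22) and Emx2 (-1.13) were lower by more than 1 on the log2 scale, and Zic2 (-0.99, adjusted p = 0.000176) and Lhx2 (-0.66, adjusted p = 0.00403) by less. For each of these 7 genes the 2 replicates of aNSC-like cells lay below both of qNSC-like cells. CPM is a share of all UMIs, and aNSC-like cells had medians of 19563 and 26841 UMIs against 9849 and 12709 in qNSC-like cells. A lower CPM here is therefore not by itself a lower number of transcripts per cell.

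Zic1 did not pass (18.9 and 8.82 against 14.9 and 16.7 CPM, -0.21 ± 0.28, adjusted p = 0.530). Zic5 was at the threshold, with 33.7 and 48.3 against 47 and 54.6 CPM (-0.39 ± 0.17, adjusted p = 0.0492), where the groups overlapped. Its call was lost in 7 of the alternatives, with adjusted p from 0.0561 to 0.757, and its value was -0.23 without replicate 1 and -0.64 without replicate 2. Among the listed genes, 8 of 8 tested glutamatergic lineage genes rose in aNSC-like cells, such as Eomes (6.70), the factor of intermediate progenitors, and 10 of 13 subpallial and GABAergic genes rose and 2 fell, such as Dlx1 (4.74, with 244 CPM in replicate 1 and 37.6 in replicate 2). Of 7 cortical patterning genes, Pax6 (-1.07), Gli3 (-0.86) and Nr2f1 (-0.65) fell and Nr2f2 rose (1.97). Of 7 midline genes 3 fell (Msx1 -3.97, Bmp6 -3.24 and Rspo3 -2.32) and Bmp7 rose (2.77), and Zic4 did not pass.

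From aNSC-like to TAP-like cells, 2 members were called, both higher, against 23.1% of all genes, 12.5% as higher. Dmrta2 rose from 43.7 and 33 to 79.1 and 67.8 CPM (1.10 ± 0.16, adjusted p = 0.000133). Zic1 rose from 18.9 and 8.82 to 33.5 and 19 CPM (1.04 ± 0.27, adjusted p = 0.0121), with replicate 1 of aNSC-like cells at the level of replicate 2 of TAP-like cells, and without the block the adjusted p was 0.114. Emx1 (-0.24), Emx2 (0.03), Fezf2 (-0.47), Tfap2c (0.12), Lhx2 (0.17), Zic2 (0.30) and Zic5 (-0.05) did not pass, and for Tfap2c the replicates of TAP-like cells, 10.8 and 33.5 CPM, spread around both aNSC-like values. Fezf2 passed without the low-count filter, with the 2 classes alone in the fit and with thinned cells (-0.44, -0.52 and -0.72, adjusted p from 0.00621 to 0.0385).

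The direction here depended on how the classes were drawn. With the study's marker thresholds, in which aNSCs lack Dlx1 and Dlx2 and TAPs have them, 7 members were called lower in TAPs, among them Emx2 (-1.302), Tfap2c (-1.75), Zic2 (-0.88) and also Dmrta2 (-0.67, adjusted p = 0.00504). Under that definition the classes differ in Dlx genes by construction. Subpallial transcripts also differed between the replicates of TAP-like cells, Dlx5 standing at 96.5 and 2.47 CPM and Sp9 at 256 and 7.85 CPM in replicates 1 and 2. Without cluster 1 and without any cell with a subpallial transcript, an alternative chosen after seeing the data, the same 2 members passed, Dmrta2 (0.96, adjusted p = 5.17e-05) and Zic1 (0.71, adjusted p = 0.0493), and Emx1 (0.01) and Fezf2 (-0.23) did not. Of 13 tested genes of that list 8 rose from aNSC-like to TAP-like cells, as did 4 of 7 cortical patterning genes (Sp8, at 105 and 3.18 against 10.1 and 0.696 CPM, Pax6 0.85 and Nr2f1 0.61, for example) and 3 of 8 glutamatergic genes, with 2 falling. Of the midline genes 1 of 7 passed (Bmp7, -1.29), and Zic4 did not.

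Among progenitors and neuroblasts, 3 of the 6 pallial genes were higher in glutamatergic than in GABAergic cells, and no Zic gene passed the test. GLU cells were TAP-like or neuroblast-like cells with a UMI of Neurog2, Eomes, Neurod1, Neurod6 or Tbr1 and none of 7 subpallial genes, and GABA cells the reverse (92 and 114 against 566 and 51 cells). No member was used in the choice. Of the 10961 genes tested 1.2% were called (0.803% higher and 0.392% lower), and of the 9 members 3, all higher in GLU cells. Emx1 stood at 78.5 and 72 against 4.06 and 3.02 CPM (4.22 ± 0.22, 18.7-fold, adjusted p = 0.00729), Fezf2 at 75.1 and 60.2 against 12.6 and 9.05 CPM (2.52 ± 0.19, adjusted p = 0.0136) and Tfap2c at 29.8 and 69.7 against 6.32 and 9.65 CPM (2.39 ± 0.26, adjusted p = 0.0286). The groups did not overlap for any of the 3.

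Emx2 (1.07, adjusted p = 0.0981), Dmrta2 (1.65, adjusted p = 0.139) and Lhx2 (1.29, adjusted p = 0.186) were also at higher values in both replicates of GLU cells but did not pass. Zic1 (34.3 and 28.1 against 38.5 and 6.63 CPM), Zic2 (11.6 and 20.8 against 18.6 and 6.63 CPM) and Zic5 (16.6 and 45.4 against 18.5 and 15.1 CPM) overlapped between the groups, with adjusted p from 0.619 to 0.902. The number of members called was 1 without the block (Emx1) and 5 with DESeq2, with 6 called when no low-count filter was used or when cells were thinned. In thinned cells the choice was made anew on the thinned UMIs, which gave 130 and 105 GLU against 827 and 95 GABA cells. Of the listed genes not in the choice, Sp8 (1 of 6 cortical patterning genes, -6.69), Bcl11b (-4.58, 1 of 2 glutamatergic genes) and Gad2 (-3.75, 1 of 6 subpallial genes) were lower in GLU cells. Slc17a6, a vesicular glutamate transporter, was at 86.2 and 45.4 CPM in GLU cells and not detected in GABA cells, and the 1 midline gene tested did not pass.

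Neuroblast-like cells of P2 and P22 gave a like order for Emx1 and Lhx2 at each age. At P2, 314 GLU neuroblast-like cells held Emx1 at 168 CPM (156 to 181) and 1717 GABA neuroblast-like cells at 2.12 CPM (1.52 to 2.87). At P22 the values were 121 (95.9 to 150) and 0.672 CPM (0.307 to 1.28), in 59 and 1395 cells. Lhx2 stood at 702 and 10.2 CPM at P2 and at 657 and 11.8 CPM at P22, in GLU and GABA neuroblast-like cells in turn. Zic2 stood at 2.45 (1.18 to 4.51) and 25.5 CPM (23.3 to 27.9) at P2 and at 1.47 (0.0372 to 8.19) and 17.5 CPM (15.3 to 19.9) at P22, in the same order of classes. Zic2 was higher in GABA than in GLU neuroblast-like cells in each of the 3 libraries with at least 20 of both without overlap of the intervals. With 1 library per age this has no replicate check.

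Astrocyte-like cells differed from qNSC-like cells in both directions. Of the 9, 5 were lower and 2 higher, against 24.1% of all genes called, 12.7% as lower and 11.5% as higher. The 5 lower were all pallial, namely Tfap2c (14.6 and 14.7 against 88.6 and 111 CPM, -2.77 ± 0.36, adjusted p = 3.1e-05), Fezf2 (-1.54), Emx1 (-1.46), Dmrta2 (-0.72) and Emx2 (-0.53, adjusted p = 0.0285). The 2 higher were Zic1 (1.47 ± 0.26, 2.77-fold, adjusted p = 0.000559) and Zic5 (0.66 ± 0.16, adjusted p = 0.00709), each with both astrocyte-like values above both qNSC-like values. Lhx2 (-0.25, adjusted p = 0.360) and Zic2 (0.24, adjusted p = 0.353) did not pass. An alternative chosen after seeing the data left out cluster 1 and any cell with a subpallial transcript. The same members passed, with Zic1 at 1.37, Zic5 at 0.38 (adjusted p = 0.0191), Tfap2c at -3.21 and Dmrta2 at -1.01, and Zic2 stood at -0.02. The Zic5 levels of cluster 0 alone at P12, given below, lay on both sides of those of astrocyte-like cells.

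Zic4 was also higher, at 15.2 and 9.63 against 3.86 and 3.76 CPM (1.69). Without the block, 4 members kept an adjusted p under 0.05, and the calls of Emx2, Dmrta2 and Zic5 were lost. With all 4 libraries the calls of Emx1 (-1.10, adjusted p = 0.0822) and Emx2 (adjusted p = 0.155) were lost, with DESeq2 that of Emx2 (adjusted p = 0.0578) and with the study's thresholds that of Zic5 (adjusted p = 0.161), while Lhx2 passed without the low-count filter (-0.34) and with the 2 classes alone in the fit (-0.23). Of the dorsal midline signals, 4 of 7 tested were higher, namely Msx2 (6.15), Wnt5a (4.45), Rspo1 (3.49) and Bmp7 (1.18), and 1 was lower. Of 7 cortical patterning genes 2 passed, both lower, among them Pax6 (-0.77), Neurog2 (-2.01) was the 1 of 8 glutamatergic genes, and of 13 subpallial genes Gad1 (4.12) and Gad2 (2.90) were higher and Meis2 lower (-0.51).

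In ependymal-like cells, the ciliated lining of the ventricle, 1 member was called against qNSC-like cells, where 17.4% of all genes were, 6.41% as lower. Emx2 was lower, at 77.8 and 83.6 against 127 and 121 CPM (-0.64 ± 0.18, adjusted p = 0.018). Tfap2c (-0.78, adjusted p = 0.105), Zic1 (-1.11, adjusted p = 0.0615) and Dmrta2 (-0.44, adjusted p = 0.0873) were at lower values without passing, while Fezf2 and Zic2 both had a log2 fold change of -0.02 and Emx1 of -0.15. The count was 5 when only these classes were fitted and 5 when cluster 1 and cells with a subpallial transcript were left out of all classes, an alternative chosen after seeing the data, 6 without the low-count filter, and 0 without the block, where the unadjusted p was under 0.05 for 2 of the 9. DESeq2, with the block, called 1. Of the lists, Bmp6 (2.44) and Wnt5a (1.96) were higher and Bmp7 lower (-1.92) among 7 midline genes, Pax6 was the 1 of 7 cortical patterning genes called (-0.44), 2 of 13 subpallial genes were called, both lower, among them Meis2 (-0.47), and of 8 glutamatergic genes none passed, nor did Zic4.

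Because subpallial cells are unevenly spread over the classes, the aNSC-like comparison was also run without cluster 1 and without any cell with a subpallial transcript, an alternative chosen after seeing the data. It then called 8 of the 9 lower, all but Zic1. Emx2 (-0.91) and Fezf2 (-1.12) were nearer to 0 than above by more than 1 SE, and the values of Emx1 (-1.10), Tfap2c (-2.13) and Dmrta2 (-1.29) moved by less than 1 SE.

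At 5000 UMIs, 1238 and 918 qNSC-like cells of replicates 1 and 2 had a UMI of any Zic gene and 2294 and 1754 had none. All 6 pallial genes were higher in the cells with a Zic transcript, against 5.8% of all 12907 genes called, 2.58% as higher and 3.22% as lower. The differences were small, from Emx1 (67 and 88.5 against 48.9 and 42.4 CPM, 0.73 ± 0.08, adjusted p = 5.67e-18) through Tfap2c (0.44), Dmrta2 (0.40), Fezf2 (0.36) and Emx2 (0.28) to Lhx2 (0.14, adjusted p = 0.0115). Six3 (-2.36), Gsx2 (-1.70) and Dlx2 (-0.997), genes of the subpallium, were lower, the 3 of 8 tested subpallial genes called. Of 6 cortical patterning genes Nr2f1 was lower (-0.26) and Pax6 higher (0.15), and of 4 midline genes and 1 glutamatergic gene none passed.

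These calls depended on the fit. By edgeR without the block 0 of the 6 members were called (unadjusted p under 0.05 for 2 of 6), and by DESeq2 likewise 0 (4 of 6). Without cluster 1, chosen after seeing the data, 2 of the 6 were called, Emx1 (0.30) and Lhx2 (0.15), and Tfap2c turned to -0.024. Without replicate 1 the value of Tfap2c was 0.66, and without replicate 2 those of Tfap2c and Emx1 were 0.21 and 0.46. The members called lower in cluster 1, given above, were the 3 Zic genes and 5 of the 6 pallial genes, Lhx2 being the exception.

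Co-detection in single cells was described next. The measure is the number of cells with a UMI of both genes over the number that their separate shares would give, with every cell at 5000 UMIs, and it is a description, since cells of a library are not replicates. Over all qNSC-like cells at P12, 34 of 36 pairs of members in replicate 1 and 36 of 36 in replicate 2 had a ratio above 1, with medians of 1.13 and 1.23. Emx1 and Tfap2c were found together in 304 cells of replicate 1, where 254 would be given by their shares (ratio 1.20), and in 305 of replicate 2, where 223 would be (1.37). Emx1 and Gsx2 were found together in 5 and 4 cells, where 24.8 and 45.3 would be given (0.202 and 0.0883).

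Within cluster 0 the ratios were closer to 1. There 24 of 36 and 26 of 36 pairs lay above 1, with medians of 1.02 in both replicates, and Emx1 and Tfap2c had ratios of 0.999 and 1.00. In cluster 0, Zic1 and Zic2, on different chromosomes, shared 39 cells against 29.2 (1.34, 95% interval 0.953 to 1.82) and 56 cells against 35.3 (1.59, 1.20 to 2.05), and Zic2 and Zic5, which lie head to head, had ratios of 1.08 and 1.22. The intervals cover counting error only.

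In TAP-like cells, 33 of 35 and 23 of 32 pairs lay above 1, with medians of 1.40 and 1.15. Zic1 and Zic2 shared 32 cells of replicate 1 against 12.4 (2.58, 1.77 to 3.63), Zic2 and Zic5 shared 34 against 14.7 (2.31, 1.60 to 3.21) and Emx1 and Fezf2 shared 19 against 7.68 (2.47, 1.49 to 3.85). In replicate 2 the ratio of Zic2 and Zic5 was 0.734 (0.270 to 1.59), so that this pair lay on different sides of 1 in the replicates.

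A cell of cluster 0 had on average 3.40 and 3.64 of the 9 genes at 5000 UMIs in replicates 1 and 2, and a cell of the subpallial cluster 1 had 1.59 and 1.48. A Zic1, Zic2 or Zic5 UMI was seen in 43.5% and 49.8% of cells of cluster 0 and in 9.02% and 6.11% of cluster 1. Astrocyte-like cells had fewer pallial genes, on average 1.64 and 1.58 of the 6 against 2.60 and 2.53 in qNSC-like cells, but more of them had a Zic UMI, 49% and 41.1% against 34% and 33.8%. The shares of cluster 0 alone, 43.5% and 49.8%, overlapped those of astrocyte-like cells. GABA neuroblast-like cells had 0.257 (P2), 0.621 (P12 replicate 1) and 0.30 (P22) of the 9, and microglia-like cells at P22 had 0.0533.

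**Figure D3:**
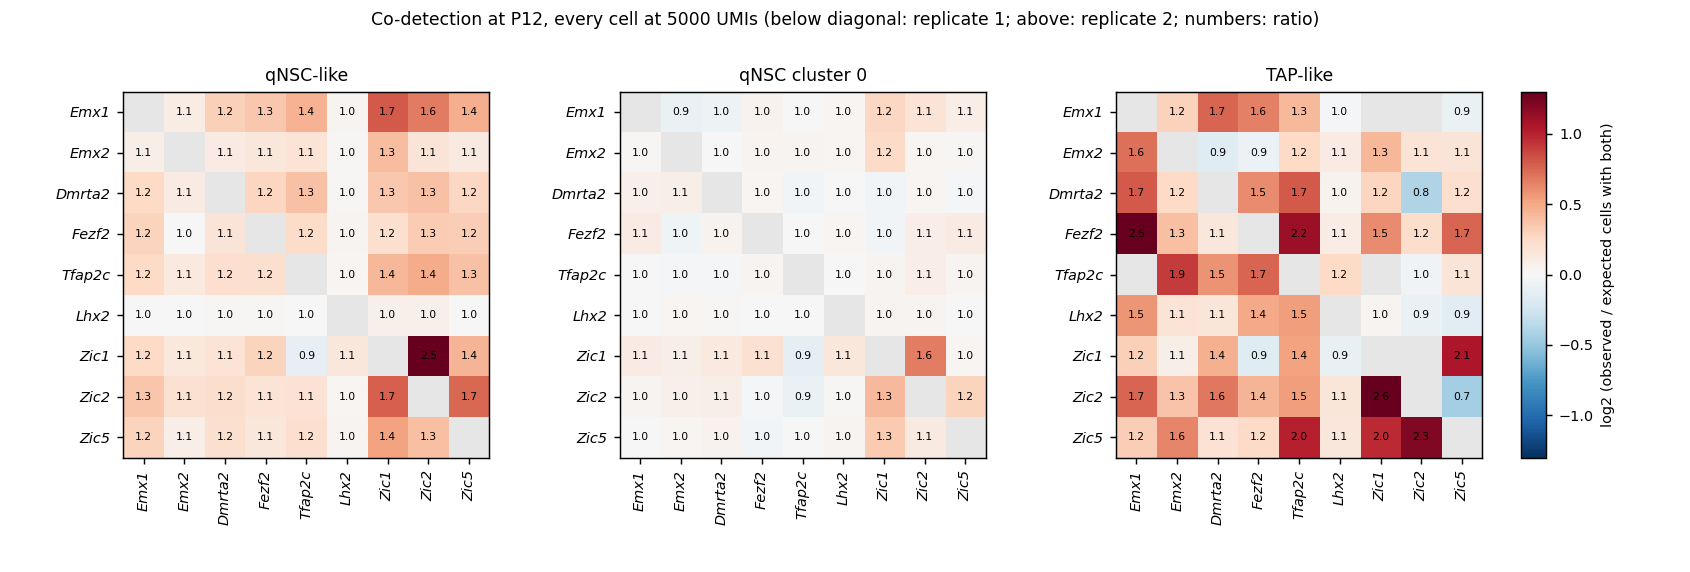
Co-detection of pairs of the 9 genes at P12 with every cell at 5000 UMIs, in qNSC-like cells, in cluster 0 of them and in TAP-like cells. Each square gives the observed over the expected number of cells with both genes, coloured on a log2 scale, with replicate 1 below and replicate 2 above the diagonal, and grey where fewer than 5 cells were expected. Most squares are above 1 in qNSC-like cells (median 1.13 and 1.23) and near 1 in cluster 0 (median 1.02), where Zic1 with Zic2 stays at 1.34 and 1.59.

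Between ages the groups hold 1 library at P2 and P22, so that values are given without a test, beside the gap between the P12 libraries. The version of Cell Ranger in the file headers (3.1.0 at P12, 5.0.1 at P2 and P22) goes with age and cannot be told apart from it. In qNSC-like cells as a whole, all 9 genes were below both P12 values at P22 and at P2, but the makeup of the class changed with age. The subpallial cluster 1 made up 310 of 477 qNSC-like cells at P2 and 317 of 602 at P22, against 660 of 3571 and 739 of 2688 at P12. Values are therefore given within cluster 0, which held 30 cells at P2 and 245 at P22.

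Within cluster 0 the genes took different courses. Emx1 stood at 108 CPM (82.4 to 139) at P2, 76.5 and 91.6 at P12 and 85.9 (73.2 to 100) at P22, where P22 lay between the P12 replicates, as did Fezf2 (144 against 167 and 126 CPM). The other 7 genes were below both P12 values at P22. Zic1 went from 73.8 CPM (52.9 to 100) at P2 through 18.1 and 29.5 at P12 to 6.28 (3.25 to 11) at P22, with no overlap of the P2 and P22 intervals with those of P12. Zic2 stood at 75.6 (54.5 to 102), 48.2 and 52.3, and 24.6 CPM (18.1 to 32.7) at the 3 ages.

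At P2, 5 of the 9 genes lay below both P12 values. Tfap2c, Zic5 and Emx2 were among them and were also below both at P22. Tfap2c stood at 54 (36.4 to 77), 104 and 160, and 82.7 CPM (70.3 to 96.7), a course in which the gap between the P12 replicates was as wide as that between P12 replicate 1 and P2. Zic5 stood at 41.4 (26.2 to 62.1), 63.1 and 81.5, and 35.1 CPM (27.2 to 44.5). Emx2 stood at 128 CPM at P2, 136 and 145 at P12 and 77.5 (65.5 to 91) at P22. In the subpallial cluster, Emx1 was at 32.9 CPM (28.2 to 38.1) at P2 against 5.07 and 5.37 at P12 and 2.36 (1.02 to 4.65) at P22, and Dmrta2 at 46.6 against 22.6 and 19.1 and 6.78 CPM.

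**Figure D4:**
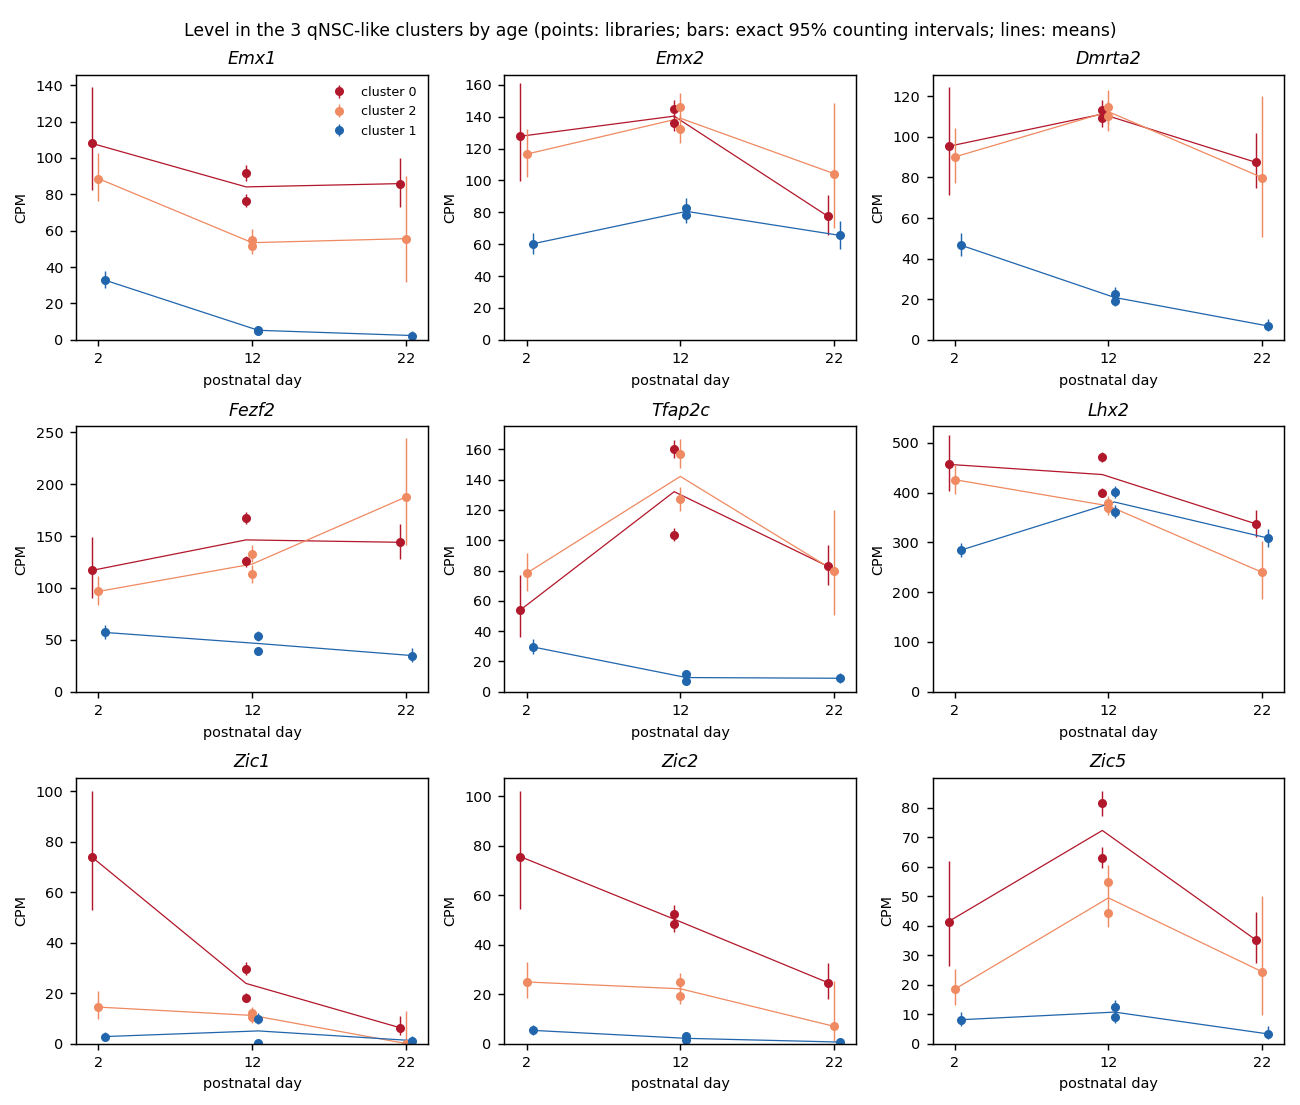
Level of each gene (y axis, CPM) by postnatal day (x axis) in qNSC-like clusters 0, 1 (subpallial) and 2. Points are libraries, bars are exact Poisson 95% intervals of single libraries (counting error only), and lines join the means at each age. Zic1 in cluster 0 goes from 73.8 CPM at P2 to 6.28 CPM at P22, while Emx1 in the same cells stays between 76.5 and 108 CPM.

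In the dividing classes, all 9 genes were below both P12 values at P22. The subpallial gene Gsx2 also differed with age in these classes. In TAP-like cells it stood at 125 CPM at P2, 57.1 and 29.8 at P12 and 89.6 at P22. In aNSC-like cells it stood at 138, 48.8 and 34.6, and 90.5 CPM. The part of a changed regional makeup in the values of the 9 genes was not tested. Emx1 in TAP-like cells stood at 12.4 CPM at P2, 11.6 and 26.6 at P12 and 2.88 (2.22 to 3.66) at P22, and Zic1 at 25.5, 33.5 and 19, and 6.89 CPM (5.85 to 8.05). In aNSC-like cells Tfap2c went from 11.8 CPM at P2 through 18.6 and 23.7 to 2.96 (1.89 to 4.4) at P22. Astrocyte-like cells at P2 (49 cells) held Emx1 at 73.3 CPM (56.4 to 93.6), against 22.6 and 18.5 at P12 and 1.52 (0.184 to 5.5) at P22, and Zic5 went from 49.2 through 80.3 and 76.9 to 12.9 CPM (7.54 to 20.7). Lhx2 in this class stood at 320 CPM (290 to 352) at P22 against 342 and 334 at P12, an interval that overlapped those of P12.

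Zic transcripts were also detected in vascular cells. The endothelial-like cluster held 69 cells over the 4 libraries, and 7 of 8 mural markers were also higher in it, so that it was split, after its values had been seen, into the 20 cells with more UMIs of mural than of endothelial markers and the other 49. All 20 cells of the mural kind had a Zic1 UMI (135 UMIs, 747 CPM), and none of the other 49 did, where 3 counts would give 6.12%. Zic4 was likewise in 10 of 20 and 0 of 49 cells. Zic2 was in 8 of 20 and 35 of 49 cells and Zic5 in 5 of 20 and 16 of 49. For this reason endothelial-like cells were not used as a background for the Zic genes.

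Of the pallial genes, Emx1 was seen in 0 of 20 and 1 of 49 cells, Fezf2 in 0 and 1, and Lhx2 in 0 and 7. Cluster 2, whose leading genes include Rgs5, held Zic1 at 11.9 and 10.4 CPM, below the 18.1 and 29.5 CPM of cluster 0.

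**Figure D5:**
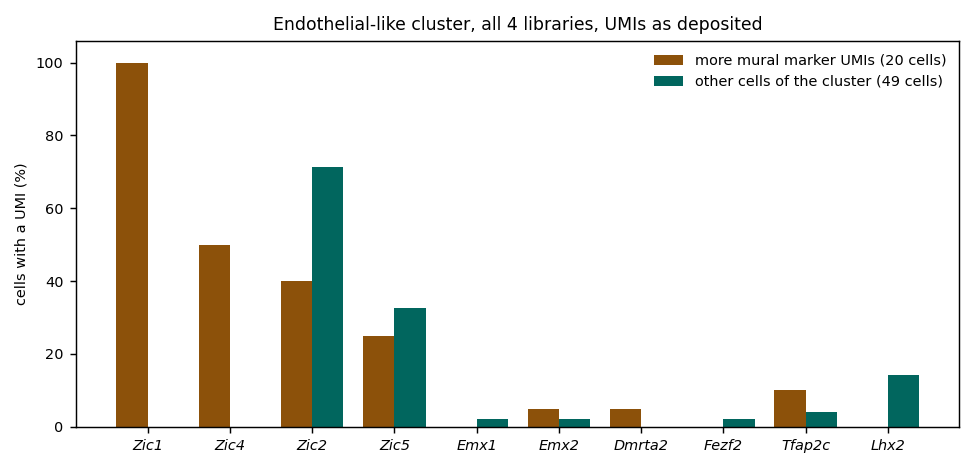
Share of cells with a UMI (y axis, percent) of 4 Zic and 6 pallial genes (x axis) in the endothelial-like cluster, all 4 libraries together and UMIs as deposited. Bars are the 20 cells with more mural than endothelial marker UMIs and the other 49 cells, with no error bars since cells are not replicates. Zic1 is at 100% of the first and 0% of the second kind, and Zic2 is in 8 and 35 cells.

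Across the 40 sums of a class in a library with at least 20 cells, the genes with the profile most like each member were named by Pearson's r of log2(CPM + 1) over 9775 genes, as a description, since sums of 1 library share depth and tissue. The closest to Fezf2 were Ccdc136 (0.95), Sfrp1 (0.95) and Veph1 (0.93), to Emx1 Cnih3 (0.87), Sfrp1 (0.86) and Nrg1 (0.84), and to Emx2 Celsr1 (0.90), Ccdc136 (0.90) and Fgfr1 (0.89). Those closest to Dmrta2 were Nrg1 (0.88), Pou3f2 (0.87) and Ltbp3 (0.87), to Tfap2c Mindy4, Plagl1 and Shroom3 (each 0.91), and to Lhx2 Inhbb, Dok5 and Celsr1 (each 0.87). Zic5 and Zic2 shared Fbln2, an extracellular matrix gene, as the closest gene (0.88 and 0.77), followed by Gli2 and Bcar3 (each 0.87) and by Sox9 and Fstl1 (each 0.73). Zic1 had no gene above 0.67, which Cdh2, Ier5l and Slc30a10 reached.

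Among the members themselves, the 15 pairs of pallial genes had r from 0.69 to 0.93 (Emx2 with Lhx2), and Fezf2 with Tfap2c had 0.90. Zic2 with Zic5 had 0.81, and Zic1 had 0.52 and 0.49 with these. The 18 pairs of a pallial and a Zic gene had values from 0.13 (Lhx2 with Zic2) to 0.64 (Fezf2 with Zic5).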

How the data were processed

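Single-cell RNA-seq of the dorsal V-SVZ was analysed from 4 libraries. The matrices hold whole-number UMI counts per gene and barcode, which the authors deposited as filtered Cell Ranger output on mm10, not normalized; the file headers name Cell Ranger 3.1.0 (P12) and 5.0.1 (P2, P22), and the submitters' processing notes Cell Ranger 3.1.0 and Seurat 3. Barcodes numbered 4608 (P2), 8617 and 6400 (P12 replicates 1 and 2) and 4880 (P22), with 66743936, 106402687, 80386488 and 65323423 UMIs in all.

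Cells with more than 2000 and fewer than 8000 genes and under 10% mitochondrial UMIs were kept (19857 in all). The P12 libraries were integrated with Seurat 5.3.0 (2000 variable genes, of which members, markers of regional identity and listed genes were left out; 1967 genes entered, with 30 anchor dimensions, 20 principal components and resolution 0.5), giving 16 clusters, and labels were transferred to P2 and P22. Doublets were called by Scrublet (scanpy 1.11.5) in 42, 108, 3 and 47 cells and were not removed; the 3 in P12 replicate 2 are too few to rely on, and an alternative dropped the cells scoring in the top 5%. Members, markers and gene lists were chosen with earlier results of these data known. Genes outside the members are named by the rule of at most 4 per list with the largest change among those called, some of which are not reported here, and likeness by the 3 highest r.

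Sums of at least 20 cells per library and class were tested with edgeR 4.0.16 (quasi-likelihood, TMM, filterByExpr, library as block, R 4.3.3), with Benjamini-Hochberg adjustment over all genes tested and a threshold of 0.05. The 4 class comparisons came from 1 fit of 16 sums (residual df 7), and the others from fits of 4 sums (residual df 1). Because the classes of 1 library share its animals, pairing is by design. Alternatives were the fit without the block, DESeq2 1.42.0, RLE scaling, no low-count filter, 2500 to 7500 genes per cell, thinning, the study's marker thresholds, all 4 libraries and each replicate left out. On simulated counts, from 55 (GLU against GABA) to 87 (subpallial cluster) of 100 genes changed by 1 on the log2 scale and from 86 (ependymal-like) to 97 (Zic-positive) of 100 changed by 2 were recovered. Counting intervals are exact (Poisson, Clopper-Pearson) at 95%. Loci are from GENCODE on GRCm38, whose gene IDs matched for 9 of 9, and upstream windows from RefSeq.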

Additional observations from a re-analysis of the deposited data

Results flagged for a closer look

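Values at P2 and P22, each with 1 library, were set beside both P12 libraries for the class comparisons of the members, as log2 ratios of CPM. In 13 of them the single library had the opposite sign to both P12 libraries. These differences were not tested.

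Of the Zic genes, Zic5 from qNSC-like to aNSC-like cells was 0.10 at P2 against -0.48 and -0.18 at P12, and in TAP-like over aNSC-like cells 0.29 at P2 and 0.26 at P22 against -0.24 and -0.23. Zic5 in astrocyte-like over qNSC-like cells was -0.23 at P22 against 0.77 and 0.49. In ependymal-like over qNSC-like cells at P2, where 26 ependymal-like cells were held, Zic1 was 1.08 against -0.58 and -1.69 and Zic5 was 1.41 against -0.22 and -0.35.

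Of the pallial genes, Emx2 in TAP-like over aNSC-like cells was 0.63 at P2 and 0.045 at P22 against -0.28 and -0.03 at P12. Astrocyte-like over qNSC-like cells gave 0.49 for Emx1 at P2 (49 astrocyte-like cells) against -1.29 and -1.64, 0.17 for Dmrta2 at P2 against -0.60 and -0.90, and 0.023 for Lhx2 at P22 against -0.17 and -0.37. Ependymal-like over qNSC-like cells at P2 gave 0.21 for Emx1 against -0.17 and -0.08, and 0.18 for Dmrta2 against -0.66 and -0.22. Of the qNSC-like cells at P2, 310 of 477 were in the subpallial cluster, against 660 of 3571 and 739 of 2688 at P12, and the part of this in the values was not tested.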

How the results depend on the processing

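Of 41 member values called, 443 of 445 alternative values had the same direction, and 322 of the 363 with a test stayed past the threshold. Values of opposite direction, called or not, were those of Emx2 (-1.302), Dmrta2 (-0.67), Tfap2c (-1.75) and Zic2 (-0.88) from aNSC to TAP with the study's marker thresholds, and of Tfap2c (-0.024) in Zic-positive against Zic-negative cells without cluster 1, an alternative chosen after seeing the data; apart from the thresholds, in which the Dlx genes define the classes, the cause was not tested. Without the replicate block, the pairing of sums by library being dropped, edgeR called 7 members for aNSC-like against qNSC-like, 1 for TAP-like against aNSC-like, 4 for astrocyte-like, 0 for ependymal-like (unadjusted p under 0.05 for 2), 1 for GLU against GABA, 6 for the subpallial cluster, 5 for Gsx2 against Emx1 and 0 for Zic-positive cells (2). Other counts that moved by over 1.5 times were 7 for TAP-like against aNSC-like with the study's thresholds; 6 for ependymal-like cells without the low-count filter, 5 with the classes compared alone in the fit, 2 with thinned cells and 5 without cells with a subpallial transcript (added); 5 with DESeq2, 6 without the filter and 6 with thinned cells for GLU against GABA; and 0 with DESeq2 (unadjusted p under 0.05 for 4) and 2 without cluster 1 (added) for Zic-positive cells. The mean detection share over members, classes and libraries was 33.1% at 5000 and 23.7% at 3000 UMIs, lower by construction. Leaving out either replicate kept the direction of the called values, with log2 fold changes of 2.10 to 4.50 for GLU against GABA, -3.62 to -0.27 for Gsx2 against Emx1, 0.98 to 1.27 for TAP-like, 0.10 to 1.05 for Zic-positive, -2.41 to -0.23 for aNSC-like, -2.86 to 1.59 for astrocyte-like, -0.76 to -0.54 for ependymal-like cells and -6.05 to -0.74 for the subpallial cluster; fits of 2 sums left no residual degrees of freedom and gave no test. The fit with all 4 libraries was not run for ependymal-like cells, which numbered 15 at P22.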

Other observations

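Cluster 8, led by Olig1, Olig2 and Egfr and left unnamed, was not itself compared with another class, although its sums entered the shared fit of the class comparisons. Emx1 stood at 20.2 CPM at P2, 13.2 and 13.8 CPM at P12 and 11.3 CPM at P22, and a cell had on average 1.19, 1.59 and 1.69, and 1.31 of the 9 genes at 5000 UMIs. A UMI of Zic1, Zic2 or Zic5 was found in 14.6% of its cells at P2, 28.2% and 31.1% at P12 and 21.6% at P22. Oligodendroglial-like cells, whose leading genes also include Nrgn and Tac1, had 0.627 (P2), 0.661 (P12 replicate 1) and 0.206 (P22) of the 9 genes per cell.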
